A study of Rattus norvegicus with 4 samples.

Results

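Chromosome 4 of the rat carried 34691 of the 699216 CD44 ChIP-seq peaks deposited for this series, 7924 of 289279 in the serum list (2.74%) and 26767 of 409937 in the starved list (6.53%). Its members were all rows of both lists placed on chromosome 4, whatever their height or q-value. The chromosome was chosen by a measured value, its serum peak density, the lowest of the autosomes, so its densities, and the other values taken from the same peaks, describe it and are not tests. The study used nucleus pulposus cells of the rat, which fill the gel-like centre of the intervertebral disc. They were grown in DMEM-F12 with 10% fetal bovine serum or starved of serum at 0.1%. Each condition had 1 library precipitated with an antibody against CD44 (Abcam ab157107) and 1 input library made without antibody. The labels give no strain, genotype, donor animal or starvation time, and both conditions are named by their serum alone. A peak list holds no expression values, so the cell type was not checked against markers.

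CD44 is a receptor in the cell membrane that binds hyaluronan, a main polymer of the disc's matrix. Its intracellular part can be released by proteases and has been described in the nucleus, where it takes part in transcription with other proteins. A ChIP-seq peak marks a place where more precipitated fragments stacked up than the surroundings led the peak caller to expect, and by itself it does not show how the protein reached the DNA. Chromosome 4 holds, by the names and chromosome assignments of RefSeq's GRCr8 assembly, the receptor gene Met, the chloride channel gene Cftr, the caveolin gene Cav1, Vwf for von Willebrand factor and the adipocyte regulator Pparg. The Cd44 gene itself is on chromosome 3. Peaks were not assigned to genes, since their positions are on Rnor_6.0 and no annotation of that build was used here.

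The 2 lists start from unequal pileups, which touches every comparison between them. The fragment stack expected by the peak caller fell to 1.502 at its lowest among serum peaks, and to 0.0996 among starved peaks. The lowest pileup, the number of fragments stacked at a peak's summit, was 4 in serum and 1 in starved peaks. Peak lists give no read counts, so the part of sequencing depth or scaling in this was not tested. Each condition has a single precipitated library, hence no replicates. The difference between the conditions and that between the libraries cannot be told apart, no p-value is given, and intervals are exact 95% intervals that cover counting error only.

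On chromosome 4 the serum peaks were sparse and the starved peaks were about as dense as elsewhere. The serum list had 43.0 peaks per Mb there (interval 42.1 to 44.0), 0.403 times the median of the other 19 autosomes, which ran from 49.4 on chromosome 12 to 126 on chromosome 2. The starved list had 145 peaks per Mb, 1.02 times the median of the others, with 6 autosomes denser and 13 less dense. Serum peaks covered 1.68% of the chromosome and starved peaks 4.51%. On the other autosomes serum peaks covered from 1.90% to 5.15% and starved peaks from 3.68% to 4.85%. Neighbouring serum peaks lay a median of 10378 bp apart, the widest spacing of all autosomes, and neighbouring starved peaks 3930 bp apart.

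**Figure D1:**
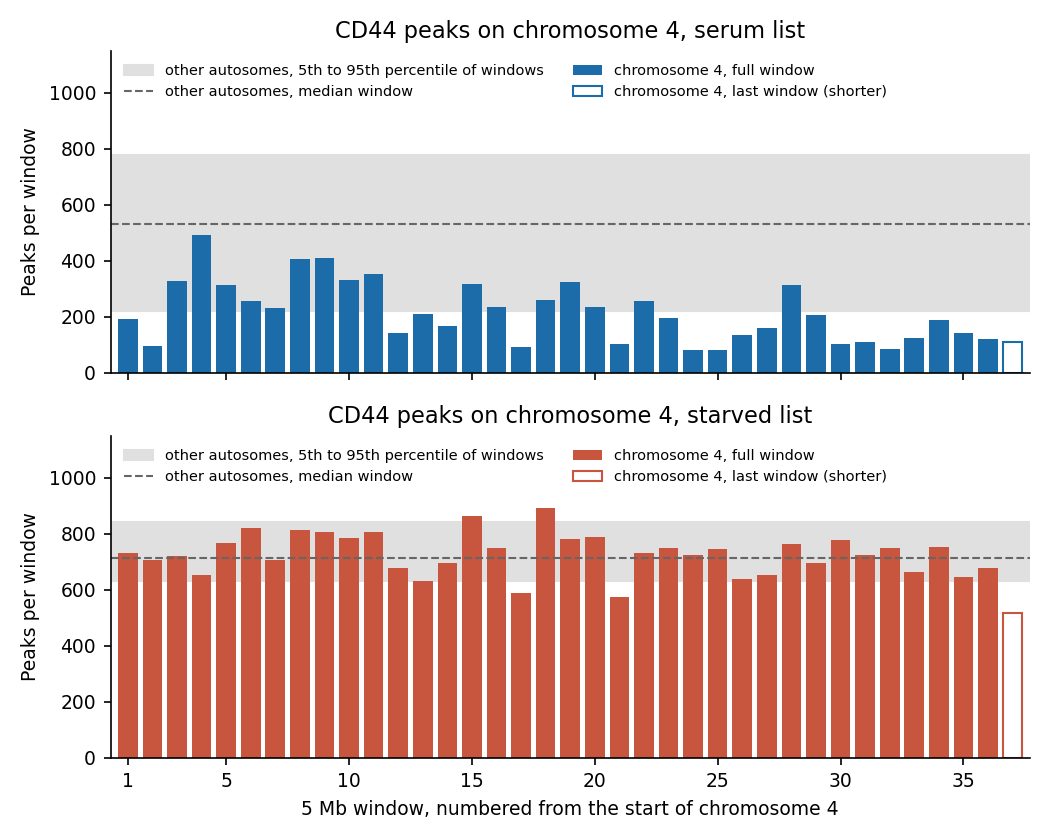
Peaks per 5 Mb window along chromosome 4 (x axis, window number from its start) in the serum list (top) and the starved list (bottom); the open bar is the shorter last window, the dashed line the median window of the other autosomes and the grey band their 5th to 95th percentile. Every full serum window lies under the dashed line at 533 peaks, while the starved bars lie on both sides of theirs at 714.

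The scarcity of serum peaks ran along the whole chromosome. Windows of the other autosomes held a median of 533 serum peaks, and 49.9% of those 479 windows fell below it. All 36 full windows of chromosome 4 did. Of these 36 windows, 20 also lay under the 5th percentile of the others, 222 peaks. The counts ran from 83 to 491 with a median of 202, a 5.92-fold span. In the starved list the counts ran from 573 to 892 with a median of 730.5, and 14 of the 36 windows lay below the other autosomes' median of 714, against 49.7% there. The relative spread over windows (SD divided by mean) of serum counts was 0.494 on chromosome 4 and 0.339 elsewhere. For starved counts it was 0.099 in both.

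The most serum peaks were in chr4:15000001-20000000, with 491. Next came chr4:40000001-45000000 with 411 and chr4:35000001-40000000 with 405. The fewest, 83 each, were in the adjoining windows chr4:115000001-120000000 and chr4:120000001-125000000, followed by 87 in chr4:155000001-160000000. These 3 sparse serum windows had ordinary counts in the starved list, with 723, 747 and 749 peaks. In the first of them the tallest starved peak had 13 fragments, while every full window of the other autosomes reached at least 14. The starved list had its most peaks in chr4:85000001-90000000 (892), chr4:70000001-75000000 (864) and chr4:25000001-30000000 (821). Its fewest were in chr4:100000001-105000000 (573), chr4:80000001-85000000 (590) and chr4:60000001-65000000 (630). The serum window at chr4:80000001-85000000 was also poor, with 91 peaks. The last, shorter window, from 180000001 on, held 110 serum and 516 starved peaks.

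Serum peaks were fewer over the far part of the chromosome than over the near part, without an even decline along it. The near part also held poor windows, such as chr4:5000001-10000000 with 95 peaks. The far part held fuller ones, such as chr4:135000001-140000000 with 314. The 18 windows up to 90000000 held 4835 serum peaks and the following 18 held 2979, a ratio of 1.62. The starved list had 13415 and 12836, a ratio of 1.05. Split at the middle of each chromosome, the serum ratio was 1.69 on chromosome 4, below 3.11 on chromosome 10 and above the other 18 autosomes, which ran from 0.650 on chromosome 15 to 1.32 on chromosome 5. Over the 36 windows, serum and starved counts had a Spearman rho of 0.519, and 0.258 over the 479 windows elsewhere. These rhos are descriptions, since windows of 1 library share depth, base composition and mappable sequence.

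Long stretches of chromosome 4 had no serum peak at all. Gaps of at least 100 kb between neighbouring serum peaks numbered 298, against 11 to 158 on the other autosomes. These counts are not scaled by chromosome length. Chromosome 4 spans 184 Mb, while chromosome 10, with 158 gaps, spans 113 Mb and chromosome 12, with 57, spans 52.7 Mb. The longest, 798 kb, was chr4:145662277-146459976, and chromosome 10 alone had a longer one (815 kb). The starved list had 134 peaks inside this gap, 9 of them with a −log10 q of at least 5 (which 13% of the whole starved list reached) and the tallest with 13 fragments. The next serum gaps, chr4:159750212-160347671 (597 kb) and chr4:6460541-6985285 (525 kb), held 86 and 83 starved peaks. The longest starved gap was 229 kb, at chr4:81490263-81718773, and no serum peak lay in it either. A starved gap of 150 kb at chr4:103611422-103761851 was also empty in both lists.

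The serum list fell short on chromosome 4 most among low peaks. Serum peaks of 4 fragments were 0.153 times as dense on chromosome 4 as on the other autosomes together (interval 0.118 to 0.195). The ratio was 0.202 at 5 fragments, 0.270 at 6, 0.389 at 7, 0.587 at 8, 0.677 at 9 and 0.740 at 10. From 12 fragments on it was 0.920 (interval 0.865 to 0.979), and at 20 to 29 fragments it was 1.02 (interval 0.897 to 1.16). At 30 or more fragments it was 0.821 (interval 0.688 to 0.971), from 135 peaks, and at 40 or more 0.685 (interval 0.525 to 0.878), from 62 peaks. At 40 or more, 8 of the other autosomes were less dense than chromosome 4 and 11 denser. At pileups of up to 7 all of the other 19 autosomes were denser than chromosome 4, and at 12 or more 7 were denser and 12 were not.

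**Figure D2:**
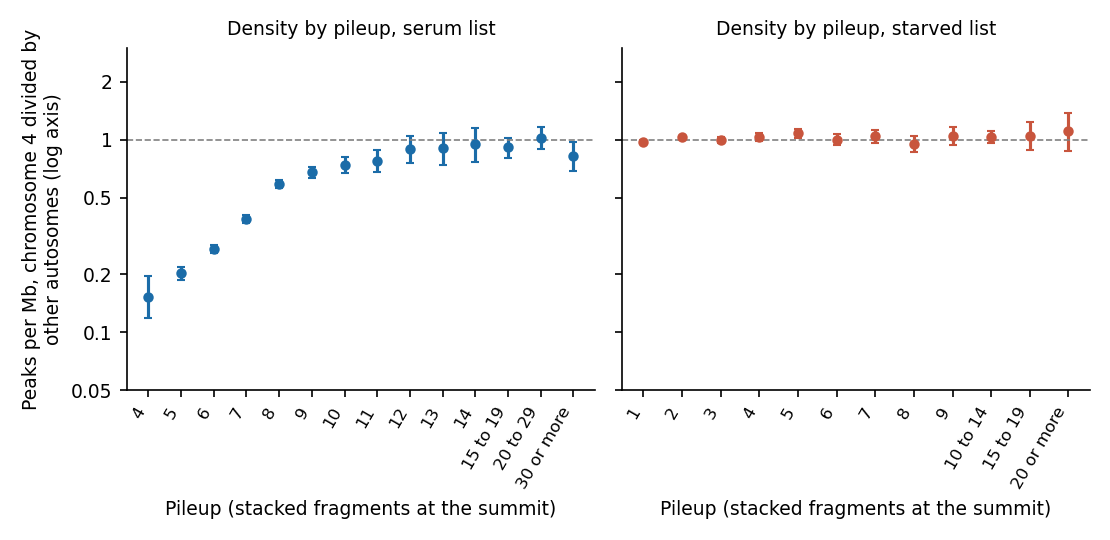
Peaks per Mb on chromosome 4 divided by that on the other autosomes together (y axis, log scale) for each pileup in fragments (x axis), serum list left and starved list right; bars are exact 95% Poisson intervals of the chromosome 4 count. The serum ratio climbs from 0.153 at 4 fragments to 1.02 at 20 to 29 and is 0.821 at 30 or more, and the starved ratio stays between 0.952 and 1.11.

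Starved peaks showed no such slope. Their density ratio was 0.976 at 1 fragment, 1.03 at 2, 0.994 at 3 and 1.03 at 4. It was highest at 20 or more fragments, 1.11 (interval 0.875 to 1.38), from 78 peaks. Peaks of 1 fragment made up 39.7% of starved peaks on chromosome 4 and 40.9% elsewhere. In the serum list, peaks of up to 7 fragments made up 48.0% on chromosome 4 and 68.8% elsewhere.

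Serum peaks on chromosome 4 were taller at the median, and slightly shorter along the genome. The median pileup was 8 fragments (quartiles 6 and 9), against 6 or 7 on each other autosome, and the mean of 9.06 lay above all of them (7.17 to 8.42). The 36 window medians ran from 7 fragments to 9. The windows at 9 were chr4:120000001-125000000, chr4:145000001-150000000 and chr4:155000001-160000000, with 83, 103 and 87 serum peaks. The median serum length was 341 bp (quartiles 273 and 443 bp), shorter than on 17 of the 19 others, whose medians ran from 332.5 to 355 bp. By window it ran from 318 bp in chr4:150000001-155000000 to 364.5 bp in chr4:85000001-90000000. Starved peaks had a median pileup of 2 in every window and a median length of 233 bp (quartiles 217 and 290 bp), with window medians from 221 to 247 bp.

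Peaks of 1 kb or longer made up 1.06% of serum peaks on chromosome 4 (84 peaks, against 1.1% over the whole list), a share near the background. In the starved list they made up 2.04% (545 peaks, interval 1.87 to 2.21%, against 1.83% over the whole list), and 2 other autosomes had a higher share. Every full window held at least 1 long starved peak, with a median of 13. The window chr4:85000001-90000000 held 46 long starved and 9 long serum peaks, the most of any chromosome 4 window in each list. On the other autosomes windows held up to 88 and 74. The window chr4:115000001-120000000 held 1 and 0.

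The local background under the peaks was raised on chromosome 4 in both lists. This background is the pileup that the peak caller expected at the place, given here as a multiple of the lowest in the list. The median was 1.497 for serum peaks, above every other autosome (1.05 to 1.25). For starved peaks it was 1.92, again above every other autosome (1.20 to 1.77, with chromosome 10 the highest of them in both lists). All 36 windows exceeded the median window of the others in both lists. Serum window medians ran from 1.38 to 2.07, and 6.47% of the other autosomes' windows reached 1.38. Starved window medians ran from 1.77 to 2.13, and 4.38% of the others reached the lowest of these. Serum and starved window medians had a Spearman rho of 0.773 on chromosome 4 (36 windows) and 0.663 elsewhere (479 windows), a description only.

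**Figure D3:**
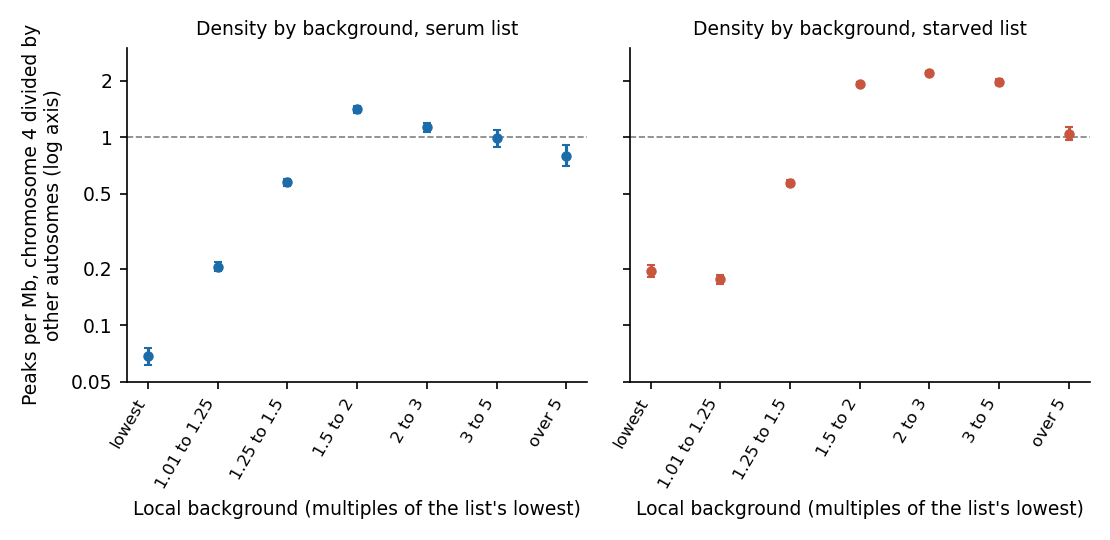
Peaks per Mb on chromosome 4 divided by that on the other autosomes together (y axis, log scale) by local background in multiples of the lowest of the list (x axis), serum list left and starved list right; bars are exact 95% Poisson intervals of the chromosome 4 count. In both lists the ratio is far under 1 at the lowest backgrounds, and above 2 times the lowest it is 1.04 for serum and 2.05 for starved peaks.

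In both lists, peaks of low background were few on chromosome 4, while at moderately raised backgrounds they were denser than elsewhere. At the lowest background (up to 1.01 times) there were 361 serum peaks (4.56%, against 31.7% over the whole list), 0.0684 times the density elsewhere. There were 777 such starved peaks (2.90%, against 17.1%), 0.194 times the density elsewhere. Between 1.5 and 2 times the lowest the ratios were 1.41 and 1.93, and between 2 and 3 times they were 1.13 and 2.20. Above 5 times they were 0.799 (interval 0.700 to 0.908) and 1.05 (interval 0.963 to 1.13). Above 2 times the lowest, chromosome 4 had 1761 serum peaks (22.2%, against 9.15% over the whole list) and 12933 starved peaks (48.3%, against 25% over the whole list). The pileup that a listed peak reached at least also differed by background. In serum autosomal peaks it was 4 fragments up to 1.5 times the lowest background, 5 from there to 2 times, 6 to 3 times, 9 to 5 times and 12 above. In starved peaks it was 1 fragment up to 5 times the lowest and 2 above. The part of the background in the number of serum peaks was not tested.

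Strong serum peaks were about as frequent per Mb on chromosome 4 as elsewhere, and strong starved peaks slightly less so. In the serum list 1599 peaks (20.2%) had a q of at most 0.05, against 19.9% over the whole list, a share near the background. A −log10 q of at least 5 was reached by 209 serum peaks (2.64%, interval 2.30 to 3.01%), against 1.22% over the whole list. They numbered 1.13 per Mb, within the range of the other autosomes (0.702 to 1.72), where 8 were denser. Their share of the serum peaks was the highest of all autosomes, with the number of weak peaks being low. Strong serum peaks numbered 1 to 14 per window, most in chr4:50000001-55000000, and their median of 5 equalled that of the windows elsewhere.

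The starved list had 11944 chromosome 4 peaks with a q of at most 0.05 (44.6%, against 52% over the whole list), the lowest share of all autosomes (46.2 to 54.2% on the others). At a −log10 q of at least 5 there were 3212 (interval of the share 11.6 to 12.4%, against 13% over the whole list), or 17.4 per Mb, with 16 of the other autosomes denser. All 36 windows had a lower share of starved peaks at a q of at most 0.05 than the median window elsewhere (53.1%), from 35.4% in chr4:115000001-120000000 to 51.9% in chr4:90000001-95000000. The same pileup gives a weaker q over a higher background, and its part in these shares was not tested. Strong starved peaks per window ran from 62 in chr4:5000001-10000000 to 125 in chr4:40000001-45000000. Over the 36 windows, the numbers of strong serum and strong starved peaks had a Spearman rho of 0.610, against 0.661 elsewhere.

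Serum peaks of chromosome 4 overlapped starved peaks more often than those of any other autosome. An overlap of at least 1 bp was found for 1769 of the 7924 serum peaks (22.3%, interval 21.4 to 23.3%, against 15.7% over the whole list), and the other autosomes ran from 13.2 to 17.0%. From the other side, 1718 of the 26767 starved peaks (6.42%, interval 6.13 to 6.72%, against 11% over the whole list) overlapped a serum peak, and 17 of the 19 others had a higher share. The 2 with a lower share were chromosomes 12 (5.55%) and 10 (5.86%). After chromosome 4 they were the sparsest in serum peaks, with 49.4 and 53.5 per Mb. The serum list covered less of chromosome 4 and the starved list slightly more than elsewhere, as given above. By window the shared part of serum peaks ran from 11.7% in chr4:20000001-25000000 to 37.0% in chr4:85000001-90000000, and that of starved peaks from 2.21% in chr4:115000001-120000000 to 11.8% in chr4:35000001-40000000.

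**Figure D4:**
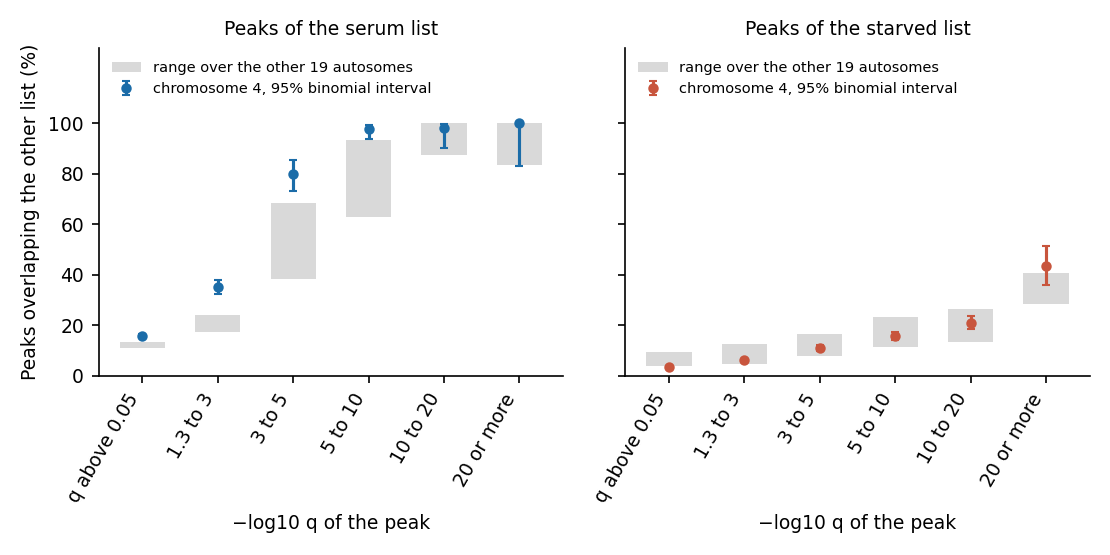
Share of peaks that overlap the other list by at least 1 bp (y axis, %) by −log10 q of the peak (x axis), serum peaks left and starved peaks right; points are chromosome 4 with exact 95% binomial intervals, and grey bars the range over the other 19 autosomes. The serum points up to a −log10 q of 10 lie above the grey bars, and the starved points lie in or below them except at 20 or more.

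The higher shared part held in each class of serum peak strength below a −log10 q of 10. It was 15.7% for serum peaks with a q above 0.05 (10.9 to 13.4% on the other autosomes), 35.2% from there to a −log10 q of 3 (17.3 to 24.1%), 79.9% from 3 to 5 (38.5 to 68.5%) and 97.8% from 5 to 10 (63.0 to 93.4%). Of the 209 serum peaks at 5 or more, 205 were shared (98.1%, interval 95.2 to 99.5%), against 73.0 to 95.9% on the others. All 20 serum peaks of chromosome 4 at 20 or more were shared, near the 98.0% of 250 elsewhere. Where the background was no more than 2 times the lowest, 29 of 32 strong serum peaks were shared (90.6%, interval 74.98 to 98.0%), against 74.9% of 716 elsewhere. Over a higher background it was 176 of 177, against 94.6% of 2108.

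Taken over all strengths, shared serum peaks were taller, longer and of higher background than unshared ones. On chromosome 4 the order of lengths was reversed from a −log10 q of 3 to 5 (medians of 414 bp shared and 429 bp unshared), while the weaker classes kept it. Over all serum peaks of chromosome 4 shared peaks had a median of 11 fragments and unshared ones 7, and elsewhere 8 and 7. The median lengths were 381 and 330 bp, and elsewhere 387 and 343 bp. The median backgrounds were 2.17 and 1.45 times the lowest, and elsewhere 1.45 and 1.09 times. At pileups of up to 10 fragments the shared parts on chromosome 4 and elsewhere were close, for example 10.8% and 10.1% at 7 fragments and 22.7% and 23.1% at 10. At 15 to 19 fragments they were 90.6% and 80.1%, and at 20 to 29 fragments 98.0% and 85.7%.

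Starved peaks of chromosome 4 were shared less often than elsewhere when weak, and also when strong at a given background. With a q above 0.05, 3.22% were shared, below all 19 other autosomes (3.81 to 9.34%). The share was 10.8% from a −log10 q of 3 to 5, 15.6% from 5 to 10 and 20.9% from 10 to 20, all within the range of the others. At 20 or more, 71 of 163 were shared (43.6%, interval 35.8 to 51.5%), against 28.3 to 40.7%, and the interval reaches into that range. Split by background, 133 of 1729 starved peaks at 5 or more were shared where it was no more than 2 times the lowest (7.69%, interval 6.48 to 9.05%), below all 19 others (8.37 to 14.7%). Over a higher background 31.2% of 1483 were shared (interval 28.8 to 33.6%), against 45.9% elsewhere. By autosome this ran from 26.9 to 54.0%, and 2 of the others were lower. Without the split, 18.5% of the 3212 at 5 or more were shared (interval 17.2 to 19.9%), within the others' range of 12.7 to 24.7%. Shared starved peaks at 20 or more had a median length of 865 bp and a background 4.97 times the lowest, and unshared ones 349.5 bp and 1.60 times. A raised background, above 2 times the lowest, held for 55.8% of the 163, against 30.6% of the 2719 on all autosomes. Of the starved peaks of 1 kb or longer, 61.3% were shared on chromosome 4 (interval 57.1 to 65.4%), against 66.3% elsewhere.

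The 10 strongest serum peaks of chromosome 4 all had a starved partner, as did nearly all serum peaks of that strength elsewhere. By far the strongest was chr4:109668114-109668530, 417 bp long, with a pileup of 121, a 12.5-fold enrichment and a −log10 q of 85.1. The overlapping starved peak, 377 bp long, had a pileup of 33, a 19.9-fold enrichment and a −log10 q of 38.9. Both lay on a raised background, 5.81 and 7.10 times the lowest of their lists. Pileup, fold enrichment and q are the authors' own and rank peaks within a list. The backgrounds were derived from pileup and fold enrichment. None of these values is compared between lists.

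The second serum peak, chr4:94519319-94519788, had a pileup of 50 on a background only 1.67 times the lowest, which gave it the highest fold enrichment of the 10 (14.5). Its partner in the starved list had 16 fragments and a 13.5-fold enrichment. The third, chr4:90125362-90125741, had 87 fragments but a background of 9.41 times the lowest, and its fold enrichment was 5.81. Of the 10, 8 had a background above 2 times the lowest, as had 84.1% of serum peaks at a −log10 q of 20 or more on all autosomes, and all 10 partners had a −log10 q of at least 5. The remaining ones were chr4:16660452-16661101, chr4:70397207-70397965, chr4:1959237-1960431, chr4:128455757-128456231, chr4:64815063-64815544, chr4:33661996-33662366 and chr4:81237985-81238646.

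The strongest starved peak was the tenth of the serum list. This starved peak, chr4:81238005-81238665, was 661 bp long, with a pileup of 48, a 40.6-fold enrichment and a −log10 q of 90.3. The serum peak at the same place, of 662 bp, had 40 fragments, a 10.4-fold enrichment and a −log10 q of 26.4. Their backgrounds were 2.08 and 1.97 times the lowest. The place lies in the window chr4:80000001-85000000, which was poor in peaks of both lists, and near the 229 kb gap that held no peak of either.

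Of the 10 strongest starved peaks, 6 had a serum partner and 4 did not. At a −log10 q of 20 or more, 33.9% of the starved peaks elsewhere had one. That class also holds weaker peaks than these 10, whose −log10 q ran from 42.9 to 90.3. With 50% of both peaks required to overlap, 4 of the 10 had a partner. At 1 bp, 3 pairs were among the 10 strongest of both lists. The serum peaks of those 3 pairs started at 81237985, 90125362 and 1959237. The 4 without a partner were narrow, at chr4:88857770-88858122 (353 bp, 28 fragments), chr4:136960078-136960436 (359 bp, 26 fragments), chr4:166226096-166226416 (321 bp, 29 fragments) and chr4:23429181-23429525 (345 bp, 26 fragments). Their fold enrichments ran from 24.0 to 24.8 and their backgrounds from 1.22 to 2.13 times the lowest. The 6 with a partner ran from 393 to 2725 bp, with backgrounds of 2.08 to 8.51 times. Besides the 3 pairs, these were chr4:15583477-15586201, chr4:135545907-135547347 and chr4:98032183-98032693.

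The longest peaks were not the strongest. The longest starved peak, chr4:89819794-89824739, spanned 4946 bp with a pileup of 13 and overlapped 4 serum peaks. The next, chr4:165953312-165957520 (4209 bp, 12 fragments) and chr4:42659299-42663284 (3986 bp, 10 fragments), overlapped 1 and 3 serum peaks. The longest serum peak, chr4:166669863-166672720, spanned 2858 bp with 26 fragments and overlapped 2 starved peaks. The serum peak chr4:176617507-176619589 (2083 bp, 29 fragments) overlapped 1. The third, chr4:58129212-58130933 (1722 bp), was 8 fragments high with a −log10 q of 0.726, and no starved peak overlapped it.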

How the data were processed

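The data are 2 deposited peak lists from CD44 immunoprecipitations, matched to their libraries by the condition prefix of the peak names. The submitters' processing notes name Rnor_6.0 as the build and FastQC, STAR 2.5.3a and MACS2 2.1.1 as tools. Their settings, the handling of duplicates and scaling, and the use of the input as control: none of this is given in the sources used here. Every peak in the lists has a length, a fold enrichment ratio, a p-value, a q-value (FDR) and a pileup signal, all as deposited by the authors. The local background of a peak was taken as 1 less than the quotient of pileup + 1 and fold enrichment. Poisson probabilities from it differed from the p-values in the files by at most 0.05 in log10 for 100% of peaks.

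Chromosome length was the last peak end of either list. Peaks were counted in 5 Mb windows by their midpoint, and windows cut short by the chromosome end were left out of ranges. Overlap meant at least 1 bp. No test was run, with 1 library per condition. The overlap step was tested on 10000 simulated peaks, where 3000 of 3000 known partners and 0 of 7000 false ones were found. Named peaks were the 10 strongest by q and the 3 longest of each list, and named windows the 3 fullest and 3 emptiest, beside windows at the extremes of a value. The chromosome, the rule and the alternatives (stricter q, overlap, window size and position, equal list lengths, background) were chosen with earlier results of these data known. Base composition and gene assignment were not analysed here. Software was numpy 2.4.6, pandas 2.3.3, scipy 1.17.1 and matplotlib 3.10.9 under Python 3.11.15.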

Additional observations from a re-analysis of the deposited data

How the results depend on the processing

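No paired analysis was possible because there is only 1 precipitated library a condition, and no replicate could be left out. Relative to the median of the other autosomes, the serum density of chromosome 4 (0.403 times) was 0.416 at a q of at most 0.05, 0.341 for peaks with at most 2 times the lowest background and 1.03 at −log10 q values from 5 up. The starved density (1.02) was 0.857, 0.678 and 0.931 in the same order. The windows below the median of the others made up 98.9 to 100% (serum) and 33.3 to 44.4% (starved) with windows shifted by 2.5 Mb or of 2 or 10 Mb. With the same 2 limits on q, 0.05 first, the serum median pileup was 11 and 30, the length 381 and 438 bp and the background 1.65 and 3.62 times the lowest, and elsewhere the background was 1.10 and 3.26. The starved values were 4 and 8, 279 and 352 bp, and 1.77 and 1.86 times. The shared part of serum peaks (22.3%) was 8.80% with 50% of both peaks overlapping, 32.8% within 500 bp, 43.3% with q limited to 0.05 on either side, 85.6% with −log10 q from 5 up on either side and 14.4% with equal numbers of peaks. It was above the other autosomes together each time (5.55, 26.5, 21.1, 72.1 and 12.6%). That of starved peaks (6.42%) was 2.60, 11.3, 5.50, 5.39 and 13.0%, against 3.96, 20.5, 5.48, 4.38 and 12.3% elsewhere. The lists differed more in number on chromosome 4 (7924 serum and 26767 starved peaks) than on the other autosomes (251063 and 352346). Equal numbers therefore kept a smaller part of the starved list on chromosome 4, so the equal-number shares of both lists compare unlike parts. With q limited in both lists, or equal numbers, the starved share was no longer the lower one. The cause was not tested. Among the 10 strongest peaks, 9 serum and 4 starved ones had a partner with 50% of both peaks overlapping. The low pileups of the starved list, where 1 fragment can make a peak, limit what its weak peaks show.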

Other observations

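Peaks at the lowest background were rare on chromosome 4 and spread along it, with high shares in some places. The 2 places described here were chosen after their values were seen, and they were not the only ones. Such peaks were also 20 of 55 starved peaks in chr4:33000001-33500000 (36.4%) and 15 of 46 in chr4:161000001-161500000 (32.6%). In the starved list, chr4:101500001-103500000 held 83 of the 777 such peaks of the chromosome (10.7%) in a stretch of 2 Mb. They made up 48.5% of its 171 starved peaks (interval 40.8 to 56.3%), against 2.61% on the rest of chromosome 4. In the serum list the same stretch had 13 of 35 peaks at the lowest background (37.1%, interval 21.5 to 55.1%), against 4.41% on the rest. The stretch was poor in peaks in both lists, with 17.5 serum and 85.5 starved peaks per Mb, and it ends just before the 150 kb gap without a peak of either list. A second place was chr4:1000001-2000000, where 31 of 80 serum peaks (38.8%) and 27 of 158 starved ones (17.1%) had that background. It also holds the strong serum peak chr4:1959237-1960431 and its starved partner. Which sequences or genes lie there was not analysed here.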
